A study of Homo sapiens with 4 samples.

Results

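The genes described here encode receptors, scaffolds and adhesion molecules of neuronal synapses, grouped as postsynaptic by family. On which side of the synapse each protein acts was not measured. They were chosen by gene symbol as glutamate receptor, GABA receptor, glycine receptor, neuroligin and postsynaptic scaffold genes, by a rule that uses no measured value, although earlier results of these data were known. The list has 51 members among the 77972 genes of the deposited gene table, and 44 of them had a mean of at least 5 reads over the 4 libraries and could be tested. The other 7, GRIN2B, GRIN2D, GRM5, GABRB1, GABRB2, GABRG3 and SHANK3, had between 7 and 19 reads in all and at most 10 in any library.

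All 4 libraries came from neurons of 1 human line, KOLF2.1J, an established induced pluripotent stem cell line. This derivative carries human NGN2 under a doxycycline-inducible promoter, which drives the cells to a cortical neuron fate, and a constitutive dCas9-BFP-KRAB construct for CRISPR interference, so both elements were present in every group. The control had no knockdown, and the labels give a lentiviral non-targeting guide RNA as the counterpart of the TDP-43 guide. The knockdown had a guide against TARDBP, which encodes TDP-43, a protein that binds RNA and represses the splicing of cryptic exons. The azacytidine group had no knockdown and was treated for 72 hours with 5 µM 5-azacytidine, which blocks DNA methylation, and the group called both had the treatment with the TDP-43 guide. Guides were carried by puromycin-selected pools grown as spheroids and then plated, and the labels give a choice of harvest days without saying which applied. Each group had 1 library of polyadenylated RNA, made with the MarathonRT reverse transcriptase and read as full-length molecules on the PacBio platform.

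At an excitatory synapse, glutamate opens AMPA, NMDA and kainate receptor channels and activates slower metabotropic receptors. The scaffold proteins of the DLG, DLGAP, SHANK and HOMER families hold these receptors in layers beneath the membrane. At an inhibitory synapse, GABA-A and glycine receptor channels are held by gephyrin, while neuroligins on the postsynaptic membrane bind neurexins of the presynaptic partner. Receptors of each class are assembled from several subunits, and exchange of subunits or of alternative exons alters how a channel opens and closes.

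Reads counted for genes numbered 595157, 767618, 466336 and 477622 in the order control, knockdown, azacytidine and both. Scaled ratios use effective library sizes, which correct each total for composition. The targeted gene TARDBP had 104, 72, 73 and 43 reads in that order, which is kept for every run of 4 values below, and its knockdown level was 62.6% of the control and 60.0% of the azacytidine library after scaling. TARDBP was called in neither of these comparisons by the rule given below. Its log2 ratios were -0.67 and -0.73 (exact binomial adjusted p = 0.0213 and 0.0738). All 8 neuronal markers had reads in every library, and their sum was between 2267.5 and 2718 CPM (reads per 1000000 effective reads), although MAP2 (871, 1110, 646 and 334 CPM) was called lower in both against knockdown and RBFOX3 (56.5, 56.9, 182 and 270.3 CPM) higher in both azacytidine pairs. Of other cell types, the markers of neural progenitors were lower in sum with azacytidine: 6 of 6 had reads in each library but that with both treatments, where HES1 was at 0, and their sum was 963 and 894 CPM without azacytidine against 164 and 128 with it. This sum was mostly PAX6 (468, 457, 6.07 and 8.25 CPM) and MKI67 (229, 225, 4.05 and 2.06), while NES (103, 77.3, 72.9 and 86.7) was called in no pair. Astrocyte markers (3 of 5 with reads in each library without azacytidine, 1 and 0 of 5 with it, AQP4 at 0 in every library) summed to 50.01 and 48.1 against 2.02 and 0 CPM, and mesenchymal markers (4 of 5 in each library without azacytidine, 2 and 1 with it, DCN at 0 in every library) to 80.7 and 84.6 against 14.2 and 4.13. The astrocyte sum was mostly SLC1A3 (29, 24, 0 and 0 reads), while GFAP had 1, 1, 1 and 0 reads and ALDH1L1 0, 8, 0 and 0. What part these other cells have in the azacytidine results below was not tested, and in bulk RNA fewer cells of a type and less RNA per cell cannot be told apart.

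For a pair of libraries, the reads of each gene were set against the effective sizes in an exact binomial test (two-sided), with Benjamini-Hochberg adjustment over all 13789 genes tested. A gene was called when the adjusted p-value was under 0.05 and the log2 ratio was at least 1 in size. With 1 library per group there is no replicate check: such a test compares the reads of 2 libraries, not the conditions, and intervals cover counting error only. The knockdown was read in 2 pairs that share no library, knockdown against control and both against azacytidine, and azacytidine in azacytidine against control and both against knockdown. The counting is not stated to use strand, and 36 of the 51 members overlap an exon of an antisense gene, 5 of these also an exon of another gene on the same strand and 15 neither, so reads of overlapping partners cannot be told apart.

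Which postsynaptic genes differed with the knockdown was asked first. In knockdown against control, 8 of the 44 members (18.2%) were called higher, where 5.98% of all genes tested were, and 0 were called lower, where 2.57% were. The 8 were the receptor genes GRIA1, GABRA2, GABRA5 and GLRB and the scaffold genes SHANK1, GPHN, CNKSR2 and MAGI2. With azacytidine present, 6 members (13.6%) were called higher (GRIA4, DLGAP3, DLGAP4, SHANK1, SHANK2 and MAGI2), against 3.71% of all genes, and 3 lower (GRIA1, GRIK3 and DLG2), against 3.27%. SHANK1 and MAGI2 were called higher in both knockdown pairs, a call that 0.471% of all genes had, and no member was called lower in both, as 0.305% of all genes were. The median log2 ratio of the members was 0.39 without azacytidine and 0.23 with it, beside 0.14 and 0.02 over all genes tested. Under total counts, which lower every ratio of the first pair, the medians of that pair were 0.18 and -0.08, and 3 of the 8 calls passed (GABRA2, GABRA5 and SHANK1). Of the higher calls of all genes in that pair, 61.5% passed.

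In azacytidine against control, 5 members (11.4%) were called lower (GRIA4, GRM3, GABRA2, DLG2 and HOMER1), beside 9.98% of all genes, and 1 higher (GRIK3), beside 6.58%. In both against knockdown, 10 members (22.7%) were called lower, beside 16.4% of all genes, and 7 higher, beside 9.07%. With total counts, however, 8 were lower and 10 higher, where 83.8% of the lower and 100% of the higher calls of all genes passed. With a mean of at least 20 reads only 27 members could be tested, of which 4 were lower and 6 higher. That setting kept 60.5% of the lower and 61.0% of the higher calls of all genes in this pair. The members called lower in both azacytidine pairs were GRIA4, GRM3, GABRA2 and DLG2, 4 of 44, where 6.19% of all genes had such a call, and 0 members were called higher in both, where 2.48% did. In azacytidine against control the share of members called lower was near that of all genes. The member medians were 0.11 without the knockdown and -0.36 with it, against 0.05 and -0.10 over all genes, and the second turned to 0.11 when gene counts were sums of transcript counts.

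**Figure D1:**
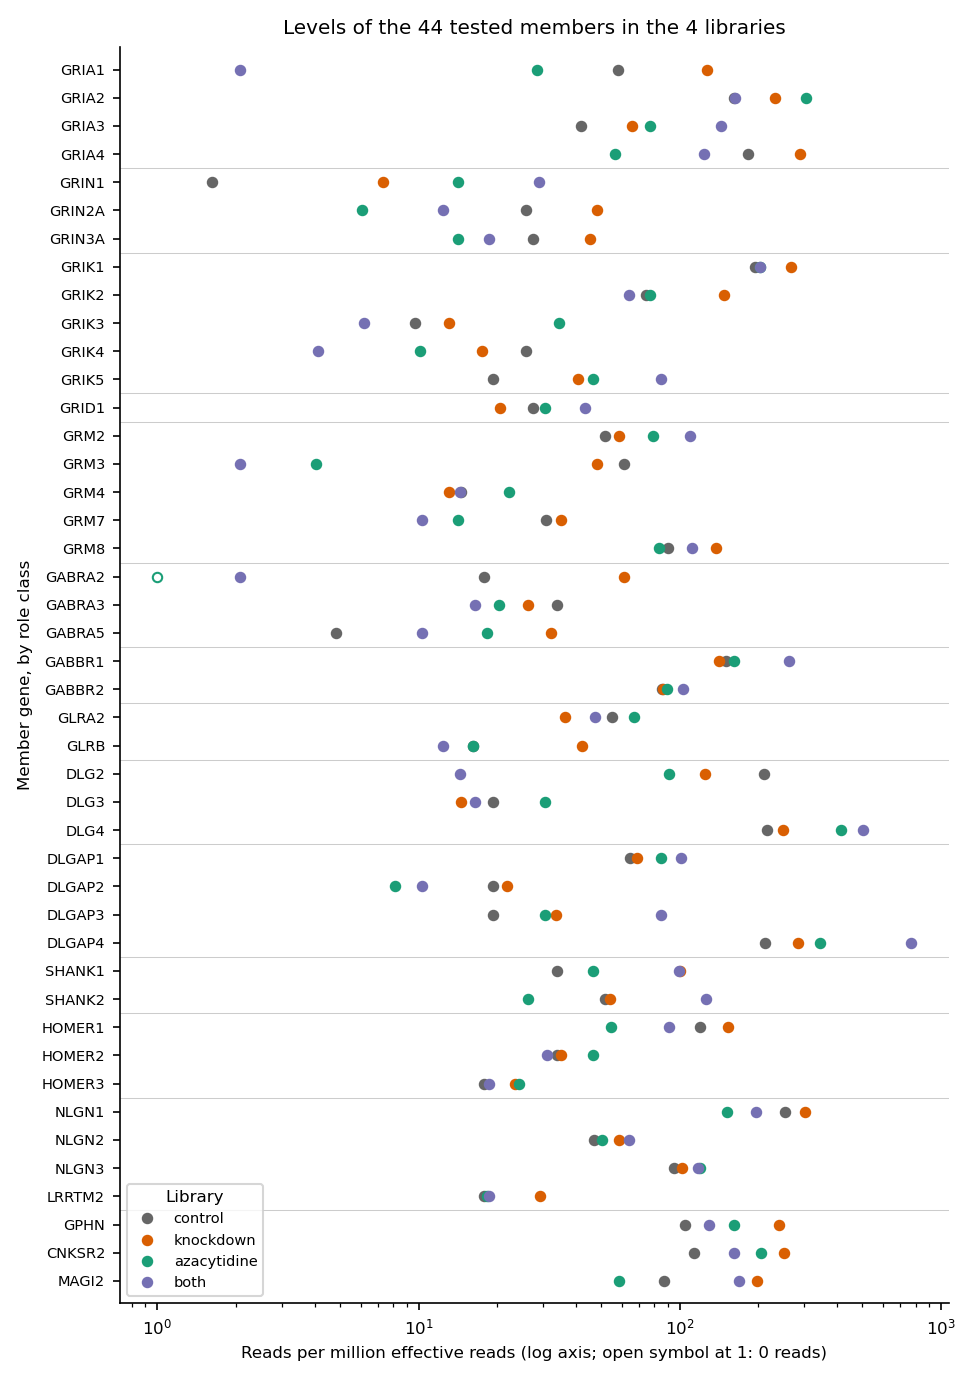
CPM (reads per 1000000 effective reads, log axis) of the 44 tested members in the 4 libraries, 1 point per library (open symbol: 0 reads), with role classes separated by grey lines. GRM3 and GABRA2 lie far lower in the azacytidine-treated libraries than in the others, and GRIA1 is lowest with both treatments.

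The AMPA receptor subunits, which carry most fast excitatory current, had a sum over the 4 genes of 444, 713, 466 and 433 CPM. In knockdown against control the log2 ratios of GRIA1, GRIA2, GRIA3 and GRIA4 were 1.12, 0.52, 0.64 and 0.66, of which the first was called, while in the other pairs the 4 genes had ratios of both signs. GRIA1 (chromosome 5, 153489615 to 153813869 on hg38, plus strand) had 36 reads in the control, 87 in the knockdown, 14 under azacytidine and 1 under both. Thus it was highest with the knockdown alone and nearly absent when azacytidine was added. GRIA1 rose in knockdown against control by a log2 ratio of 1.12 (95% interval 0.55 to 1.73, exact binomial adjusted p = 0.000826). In both against azacytidine it fell by 3.31 on the log2 scale, with a wide interval of -9.18 to -1.06 (exact binomial adjusted p = 0.0147). In both against knockdown it fell by 5.44 (-11.26 to -3.43, exact binomial adjusted p = 2.26e-17). GRIA1 was the 1 member called in opposite directions in the knockdown pairs, a difference that was itself not tested.

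GRIA4 (chromosome 11, 105609535 to 105982090, plus strand) had 113, 198, 28 and 60 reads, so both azacytidine-treated libraries lay below both untreated ones. It fell by 1.67 on the log2 scale in azacytidine against control (interval -2.34 to -1.08, exact binomial adjusted p = 7.11e-08) and fell by 1.22 in both against knockdown (-1.66 to -0.80, adjusted p = 2.6e-08 by the same exact test). It rose by 1.12 in both against azacytidine (0.46 to 1.83, exact binomial adjusted p = 0.00953), while in knockdown against control its ratio of 0.66 was under the threshold. Counted from reads assigned to a transcript, GRIA4 had 44, 46, 24 and 16, the rise with azacytidine present turned to -0.41, and neither azacytidine call passed, with ratios of -0.66 in azacytidine against control and -1.04 in both against knockdown (exact binomial adjusted p = 0.294 and 0.0506). GRIA3 went the other way, with 26, 45, 38 and 70 reads and a rise of 1.13 in both against knockdown (0.58 to 1.71, exact binomial adjusted p = 0.000277). GRIA2, whose subunit limits calcium entry, had 100, 159, 150 and 79 reads, was highest with azacytidine alone per effective read, and was called in no pair (ratios from -0.89 to 0.91).

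Each AMPA receptor gene has 2 alternative exons of 115 bases, flip and flop, of which a channel subunit carries 1. Receptors with flop desensitize faster, and flip prevails early in development. The exons were identified in the annotation as neighbouring exons of equal length, and their sequences were read from GENCODE 29 transcripts (hg38, plus strand). GRIA2 and GRIA3, the subunits with the lowest and highest flip share in the library with both treatments among those with over 1 read, are printed because the exon choice is read from the bases in capitals, which are those that differ between flip and flop of the same gene.
GRIA2 flop exon, chr4:157361010-157361124: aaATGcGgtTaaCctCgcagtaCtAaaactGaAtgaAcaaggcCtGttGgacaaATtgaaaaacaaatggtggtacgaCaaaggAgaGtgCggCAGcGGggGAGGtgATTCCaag
GRIA2 flip exon, chr4:157361538-157361652: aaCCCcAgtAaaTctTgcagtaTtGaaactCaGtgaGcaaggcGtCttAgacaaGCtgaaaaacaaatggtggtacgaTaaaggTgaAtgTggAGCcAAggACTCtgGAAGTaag
GRIA3 flop exon, chrX:123465674-123465788: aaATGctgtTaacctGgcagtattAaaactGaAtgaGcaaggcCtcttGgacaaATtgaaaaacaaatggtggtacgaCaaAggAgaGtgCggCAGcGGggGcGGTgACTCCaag
GRIA3 flip exon, chrX:123480063-123480177: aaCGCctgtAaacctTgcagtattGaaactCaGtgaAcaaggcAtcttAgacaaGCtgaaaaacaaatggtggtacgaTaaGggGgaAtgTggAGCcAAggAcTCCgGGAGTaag
The 2 exons differ at 36 positions in GRIA1, 35 in GRIA2, 32 in GRIA3 and 30 in GRIA4. Between subunits, identity was 87.0% to 94.8% for flop and 87.8% to 92.2% for flip, so exons of the same kind in different genes were more alike than flip and flop of the same gene.

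Reads whose estimated transcript held exactly 1 of the exons gave the flip share. In GRIA1 it was 78.3% in the control (18 of 23 reads, 95% Wilson interval 58.1 to 90.3) and 84.8% in the knockdown (28 of 33, 69.1 to 93.3), and the treated libraries held only 4 reads and 1 read. In GRIA2 flop prevailed: flip was 40.9% (9 of 22), 24.4% (10 of 41), 40% (14 of 35) and 25.9% (7 of 27) in the same order of libraries. GRIA3 had flip shares of 57.9% (11 of 19), 72.4% (21 of 29), 63.2% (12 of 19) and 86.2% (25 of 29). GRIA4 was close to even in every library, at 53.3%, 54.5%, 60.0% and 60.0%. Over 16 two-sided Fisher's exact tests, 4 pairs for each gene, no difference in flip share passed, with adjusted p-values of at least 0.951. Both libraries with the knockdown had the lower GRIA2 share and the higher GRIA3 share, but each interval overlapped that of its own control, and uniquely assigned reads did not keep this order: flip had 1 of 4, 2 of 8, 4 of 8 and 3 of 8 in GRIA2 and 7 of 8, 8 of 11, 7 of 10 and 14 of 14 in GRIA3. For GRIA4 the shares rest on division of reads among transcripts, since uniquely assigned reads with flip numbered 0 of 6, 0 of 6, 1 of 4 and 0 of 4. Transcripts annotated with both exons, 4 in GRIA2, 1 in GRIA3 and 2 in GRIA4, were left out.

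**Figure D2:**
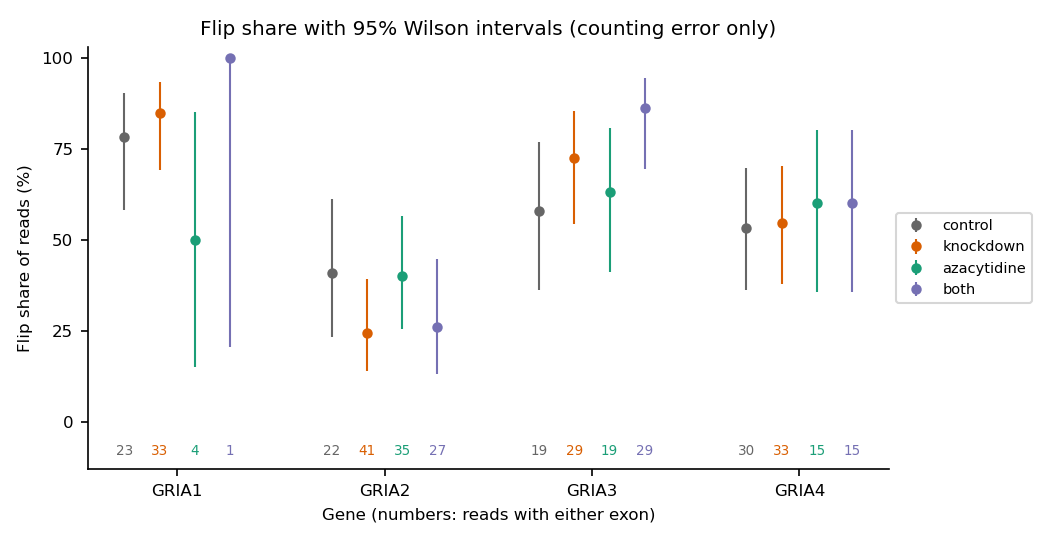
Flip share of reads (percent) for the 4 AMPA receptor genes in each library, with 95% Wilson intervals and the number of reads below each point. GRIA1 lay above GRIA2 in the control and knockdown libraries (78.3% and 84.8% against 40.9% and 24.4%), and within each gene the intervals of the libraries overlapped.

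The NMDA receptor subunits, which form the calcium-permeable coincidence detectors of the synapse, summed to 66.1, 104, 44.5 and 59.8 CPM. GRIN1, the subunit that every such receptor needs, had 1, 5, 7 and 14 reads and rose by 1.86 in both against knockdown (0.43 to 3.81, exact binomial adjusted p = 0.0277), a call lost with no filter. GRIN2A had 16, 33, 3 and 6 reads and fell by 1.89 on the log2 scale in the same pair (-3.50 to -0.69, exact binomial adjusted p = 0.00422). GRIN3A had 17, 31, 7 and 9 reads and fell by 1.24 (-2.54 to -0.18, exact binomial adjusted p = 0.0463), a call lost with total counts, DESeq2 size factors, no filter and the length trend removed, and transcript counts gave a ratio of -0.12. In azacytidine against control none of the 3 was called. GRIN2B and GRIN2D, with 7 reads each in all, could not be compared.

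Among kainate receptor subunits, GRIK1 had 120, 183, 100 and 98 reads, with no call. GRIK2 had 46, 101, 38 and 31 reads and fell by 1.19 on the log2 scale in both against knockdown (-1.83 to -0.61, exact binomial adjusted p = 0.00015). Its reads with both treatments were mostly assigned to transcripts and those of the knockdown were not (67.7% against 20.8%), and the ratio from transcript counts was 0.45. GRIK5, a high-affinity subunit, had 12, 28, 23 and 41 reads and rose by 1.03 in that pair (0.32 to 1.80, exact binomial adjusted p = 0.0121), but transcript counts gave -0.16. GRIK3 had 6, 9, 17 and 3 reads, rose by 1.74 in azacytidine against control (0.42 to 3.46, exact binomial adjusted p = 0.0299) and fell by 2.32 in both against azacytidine (-4.89 to -0.69, exact binomial adjusted p = 0.0306). With no filter both GRIK3 calls were lost. GRIK4, with 16, 12, 5 and 2 reads, and the delta receptor gene GRID1, with 17, 14, 15 and 21, were not called.

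Among metabotropic receptor genes, GRM3 was read almost only without azacytidine. It encodes a receptor that lowers cyclic AMP and is found in neurons and in glia. Its reads numbered 38 in the control and 33 with the knockdown, against 2 with azacytidine and 1 with both. It fell by 3.66 on the log2 scale in azacytidine against control (-7.02 to -1.97, exact binomial adjusted p = 1.7e-06) and fell by 4.06 in both against knockdown (-9.89 to -1.97, exact binomial adjusted p = 5.9e-06). Both calls stood when gene counts were summed over estimated transcripts or over uniquely assigned reads, and full-length reads kept the first. GRM3 (chromosome 7, 86643909 to 86864879, plus strand) overlaps the antisense gene GRM3-AS1. The sum of the astrocyte markers given above, mostly reads of SLC1A3, was also lower in both azacytidine-treated libraries. What part such cells have in the GRM3 result was not tested. The close relative GRM2, which signals the same way, had 32, 40, 39 and 53 reads and no call. GRM7 had 19, 24, 7 and 5 reads and fell by 1.68 on the log2 scale in both against knockdown (-3.51 to -0.34, exact binomial adjusted p = 0.0261), while GRM8 with 56, 94, 41 and 54 and GRM4 with 9, 9, 11 and 7 reads were not called. The GRM7 call was lost with total counts and with no filter.

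The promoters of GRM3 and GABBR1 are printed because transcripts read in these libraries start there, for GRM3 mainly without azacytidine and for the inner start of GABBR1 mainly with azacytidine alone. Capitals mark CG, the dinucleotide at which DNA is methylated, which reads the same on both strands. They are the 250 bases before the start in RefSeq (GRCh38.p14), 5′ to 3′ along the gene, on the plus strand for GRM3 and the minus strand for GABBR1.
GRM3 promoter, chr7:86643659-86643908: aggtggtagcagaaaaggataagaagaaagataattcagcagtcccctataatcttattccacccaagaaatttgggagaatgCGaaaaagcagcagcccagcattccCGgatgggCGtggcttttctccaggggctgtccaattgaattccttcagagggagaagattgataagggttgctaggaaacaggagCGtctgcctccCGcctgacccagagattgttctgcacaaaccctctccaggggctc
GABBR1 inner promoter, chr6:29628014-29628263: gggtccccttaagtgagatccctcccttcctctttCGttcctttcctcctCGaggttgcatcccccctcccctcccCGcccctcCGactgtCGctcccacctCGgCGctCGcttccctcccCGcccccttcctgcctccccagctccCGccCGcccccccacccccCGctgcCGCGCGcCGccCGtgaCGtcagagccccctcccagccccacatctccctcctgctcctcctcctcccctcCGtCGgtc
GRM3 holds 5 CG here and GABBR1 20. Within 100 bases of the printed GRM3 start began the transcripts of 29 of 34 transcript reads in the control, 24 of 25 in the knockdown, 1 of 2 in the azacytidine library and none of the 0 transcript reads with both treatments. RefSeq promoters of 300 bases (250 before to 50 after the start) matched 41 of the 51 members. They held a median of 22 CG, against 26 for the promoters of genes tested and 14 over all 27305 promoters, and 78.0% of them held at least 10 CG, against 88.8% and 56.0%. At least 1 CG was in every one of the 41 and in 95.8% of all promoters. GRM3 has 11 in that window, while GRIA4, GABRA2 and DLG2, also called lower in both azacytidine pairs, have 26, 30 and 4. For these 3 the RefSeq start is not where their transcripts began: 1 of 44 control reads of GRIA4, 0 of 9 of GABRA2 and 0 of 32 of DLG2 lay within 100 bases of it. DNA methylation was not measured in these files.

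GABA-A receptor subunits form the main inhibitory chloride channel, and the 6 genes summed to 82.3, 146, 48.6 and 41.3 CPM. GABRA2 (chromosome 4, 46243548 to 46475230, minus strand) had 11, 42, 0 and 1 reads, so it was read almost only without azacytidine. It rose by 1.74 in knockdown against control (0.80 to 2.89, exact binomial adjusted p = 0.00143). Against the limit of 3 reads for the library at 0, it was at least 2.92-fold lower in azacytidine than in the control (exact binomial adjusted p = 0.0121), and it fell by 4.40 on the log2 scale in both against knockdown (-10.23 to -2.34, exact binomial adjusted p = 9.51e-08). GABRA5 had 3, 22, 9 and 5 reads and rose by 2.53 in knockdown against control (0.99 to 5.11, exact binomial adjusted p = 0.00495). Of its 22 knockdown reads, 13.6% were assigned to a transcript, against all 3 in the control. GABRA3, with 21, 18, 10 and 8 reads, was not called, and the 3 remaining subunits were too low to test.

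The 2 subunits of the metabotropic GABA-B receptor, which pair to form 1 working receptor, had counts that passed no call. GABBR1 had 93, 97, 80 and 127 reads and GABBR2 53, 59, 44 and 50, although the GABBR1 ratio of 0.88 in both against knockdown had an exact binomial adjusted p of 4.43e-05. GABBR1 is known for 2 forms with separate first exons, of which the shorter, GABA-B1b, starts inside the gene. The inner first exon (chromosome 6, 29627486 to 29628013, minus strand) directly follows the printed CG-rich stretch. The control had it in 0 of 58 transcript reads, which allows a share of up to 5.17%, the knockdown in 1 of 57 (1.75%), azacytidine in 11 of 47 (23.4%, Wilson interval 13.6 to 37.2) and both treatments in 0 of 70, which allows up to 4.29%. Thus nearly all reads of this start were in the library with azacytidine alone. Uniquely assigned reads gave the same picture, 0 of 23, 0 of 20, 5 of 23 and 0 of 35. Full-length reads with it numbered 0 of 13, 0 of 11, 5 of 17 and 0 of 21. The transcript with most of these reads (ENST00000377012) passed Fisher's exact test in azacytidine against control (adjusted p = 0.00283) and in the opposite direction in both against azacytidine (adjusted p = 0.00114), so it was not called for either treatment.

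The glycine receptor gene GLRB, whose subunit anchors the channel to gephyrin, had 10, 29, 8 and 6 reads. It rose by 1.34 in knockdown against control (0.31 to 2.59, exact binomial adjusted p = 0.0436) and fell by 1.70 in both against knockdown (-3.33 to -0.48, exact binomial adjusted p = 0.0122). The first of these calls was lost with total counts, DESeq2 size factors, no filter, the length trend removed and uniquely assigned counts. GLRA2, the channel-forming subunit of immature neurons, had 34, 25, 33 and 23 reads and no call.

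Among the DLG scaffolds, DLG2 (PSD-93) and DLG4 (PSD-95), which bind NMDA receptors and potassium channels, were called in opposite directions in both against knockdown. DLG2 (chromosome 11, 83455012 to 85628335, minus strand) had 130, 86, 45 and 7 reads. It fell by 1.20 on the log2 scale in azacytidine against control (-1.73 to -0.70, exact binomial adjusted p = 1.04e-05) and fell by 3.04 in both against knockdown (-4.48 to -2.01, exact binomial adjusted p = 1.2e-11). With azacytidine present it also fell by 2.59 on adding the knockdown (-4.05 to -1.50, exact binomial adjusted p = 5.63e-06). The reads were thus highest in the control and lowest with both treatments, but most of them matched no transcript: 24.6% of the control reads were assigned to one, and with transcript counts, which were 32, 19, 12 and 5, none of the 3 calls of DLG2 passed. The ratio in azacytidine against control was then -1.18, nearly as with gene counts (exact binomial adjusted p = 0.11), and in both against knockdown it was -1.39. DLG4 had 134, 170, 204 and 243 reads and rose by 1.01 in both against knockdown (0.73 to 1.31, exact binomial adjusted p = 4.3e-11), while its ratio of 0.93 in azacytidine against control was just under the threshold. DLG4 overlaps an exon of ACADVL on the other strand. DLG3, with 12, 10, 15 and 8 reads, was not called.

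The DLGAP proteins link DLG scaffolds to SHANK, and their 4 genes summed to 315, 408, 468 and 964 CPM. DLGAP4 had 131, 195, 170 and 372 reads, the most in the library with both treatments. It rose by 1.16 in both against azacytidine (0.89 to 1.43, exact binomial adjusted p = 2.06e-16) and by 1.43 in both against knockdown (1.18 to 1.69, exact binomial adjusted p = 1.35e-28). Of its 372 reads with both treatments, 270 were assigned to no transcript. DLGAP3 had 12, 23, 15 and 41 reads and rose by 1.45 and 1.31 in the same pairs (exact binomial adjusted p = 0.00761 and 0.00177), with 78.0% to 100% of its reads assigned in each library. DLGAP1, with 40, 47, 42 and 49 reads, and DLGAP2, with 12, 15, 4 and 5, were not called.

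SHANK proteins are the deep layer of the scaffold, and their 3 genes summed to 87.1, 158, 85.0 and 227 CPM. SHANK1 (chromosome 19, 50659255 to 50719802, minus strand) had 21, 69, 23 and 48 reads, so both knockdown libraries lay above both others. It rose by 1.55 in knockdown against control (0.85 to 2.35, exact binomial adjusted p = 0.000104) and by 1.07 in both against azacytidine (0.34 to 1.87, exact binomial adjusted p = 0.0319). SHANK2 had 32, 37, 13 and 61 reads and rose with azacytidine present by 2.22 (1.38 to 3.25, exact binomial adjusted p = 6.82e-07), and in both against knockdown by 1.21 (0.61 to 1.85, exact binomial adjusted p = 0.000356). Of the HOMER proteins, which join SHANK to metabotropic receptors, HOMER1 had 74, 105, 27 and 44 reads and fell by 1.11 on the log2 scale in azacytidine against control (-1.82 to -0.47, exact binomial adjusted p = 0.00377), and uniquely assigned reads gave the same call. All HOMER1 transcript reads, 68, 90, 26 and 42, were in the long form (ENST00000334082), and the 4 shorter annotated transcripts had 0 reads in each library. HOMER2, with 21, 24, 23 and 15 reads, and HOMER3, with 11, 16, 12 and 9, were not called.

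The gephyrin gene GPHN, whose protein anchors inhibitory receptors, had 65, 165, 80 and 63 reads and rose by 1.19 in knockdown against control (0.78 to 1.64, exact binomial adjusted p = 2.38e-07). CNKSR2, a scaffold that binds DLG4 and Ras pathway proteins, had 70, 172, 101 and 78 reads and rose by 1.15 in that pair (0.74 to 1.57, exact binomial adjusted p = 2.76e-07). With azacytidine present neither gene was called, and their ratios were below 0 (-0.32 and -0.34). MAGI2, a membrane scaffold of excitatory and inhibitory synapses, had 54, 135, 29 and 82 reads and rose in both pairs, by 1.17 (0.71 to 1.66, exact binomial adjusted p = 6.85e-06) and by 1.51 (0.90 to 2.19, exact binomial adjusted p = 1.79e-05). Uniquely assigned reads turned the MAGI2 ratios to -0.73 and -0.70, and MAGI2 (chromosome 7, 78017055 to 79453667, minus strand) overlaps the antisense gene MAGI2-AS3.

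**Figure D3:**
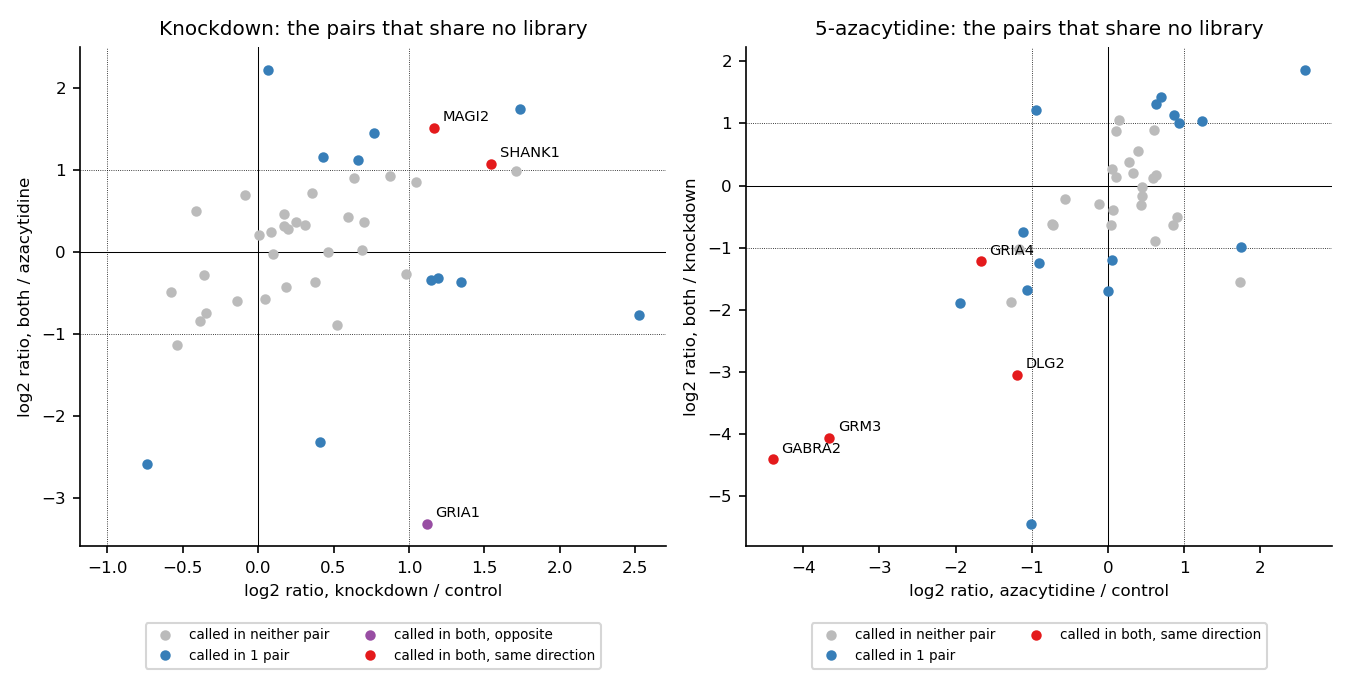
Log2 ratios of the 44 tested members in the 2 knockdown pairs (left) and the 2 azacytidine pairs (right), 1 point per gene, with dotted lines at -1 and 1. Red points were called in the same direction in both pairs: SHANK1 and MAGI2 in the upper right of the left panel, and GRIA4, DLG2, GRM3 and GABRA2 in the lower left of the right panel. GABRA2 had 0 reads with azacytidine, so its ratios against that library depend on the pseudocount of 0.5.

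Among adhesion molecules, none was called for its gene count. NLGN1 had 157, 207, 75 and 95 reads, and its ratios in the azacytidine pairs of -0.73 and -0.62 were under the threshold in size. NLGN2, of inhibitory synapses, had 29, 40, 25 and 31 reads, NLGN3 had 59, 70, 59 and 57, and LRRTM2, another neurexin ligand, had 11, 20, 9 and 9.

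The transcripts of NLGN1 did differ. An alternative coding exon of 60 bases, shown because its presence separates the transcripts, was read from a GENCODE 29 transcript of the gene (hg38, plus strand).
NLGN1 alternative exon, chr3:173605534-173605593: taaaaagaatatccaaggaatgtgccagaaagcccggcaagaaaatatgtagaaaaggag
Transcripts with it made up 12 of 62 transcript reads in the control (19.4%, Wilson interval 11.4 to 30.9), 35 of 87 in the knockdown (40.2%, 30.6 to 50.7), 5 of 60 in the azacytidine library (8.33%, 3.61 to 18.1) and 0 of 77 with both treatments, which allows up to 3.90%. The order of the libraries was the same in uniquely assigned reads, 2 of 13, 5 of 13, 1 of 10 and 0 of 13, and no read of these transcripts was full-length in any library. Another NLGN1 transcript (ENST00000361589), which starts at another first exon than the leading one (ENST00000457714), had 0, 3, 18 and 25 reads. Its share was 0% (up to 4.84%), 3.45%, 30.0% and 32.5%, and it rose in both azacytidine pairs (Fisher's exact adjusted p = 5.85e-05 and 3.43e-05). This call rests on how reads were divided among transcripts, since only 1 read, in the azacytidine library, was assigned to that transcript alone.

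Of the 20 members with a mean of at least 20 transcript reads, some had a single leading form in every library and others divided their reads. GABBR2 was read only as ENST00000259455, and NLGN2 had between 92.3% and 95.6% of its transcript reads in ENST00000302926. GRIK1 had 51.9%, 58.4%, 29.5% and 68.0% in its leading transcript ENST00000389125, lowest with azacytidine alone, and DLGAP4 had 51.9%, 36.0%, 78.9% and 36.3% in ENST00000475894, lowest in both knockdown libraries. GPHN had 60%, 43.3%, 79.5% and 60% in ENST00000315266, while NLGN3 was read as 13 transcripts with at most 36.9% in the leading one (ENST00000374051).

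Use of transcripts within genes was tested for 58 transcripts of 20 members by Fisher's exact test, as for all 15529 transcripts, and a call needed a change of at least 10 percentage points in the same direction in both pairs. With azacytidine 1 member transcript was called higher, the NLGN1 one above, and 0 lower, beside 0.489% and 0.638% of all transcripts tested. With the knockdown 0 were called in either direction by Fisher's exact test, beside 0.361% and 0.341%. In the single pairs 8 and 16 of the 58 had an unadjusted p under 0.05. The share over all transcripts was not counted for this, so these numbers cannot be read as a trait of the members. In single pairs, the MAGI2 transcript ENST00000629359 had 4 of 22 transcript reads in the control and 26 of 35 in the knockdown (Fisher's exact adjusted p = 0.00145), and 12 of 24 and 21 of 32 with azacytidine. Only 0, 1, 3 and 1 reads were assigned to that transcript alone, so these shares rest on how reads were divided among transcripts. SHANK2 transcript ENST00000601538 had 8 of 23, 0 of 27, 0 of 13 and 10 of 34 reads, so it was read in the control and with both treatments (Fisher's exact adjusted p = 0.0174 in knockdown against control and 0.0254 in both against knockdown). DLGAP1 transcript ENST00000315677 had 0 of 18 and 0 of 18 without azacytidine and 7 of 30 and 13 of 28 with it (Fisher's exact adjusted p = 0.272 and 0.0107). By Fisher's exact test NLGN1 ENST00000457714 fell in knockdown against control (adjusted p = 0.0262) and ENST00000695368 in both against knockdown (adjusted p = 1.58e-09). In both against azacytidine GRM8 ENST00000358373 and DLGAP4 ENST00000475894 fell and GRIK1 ENST00000389125 rose (Fisher's exact adjusted p = 0.00172, 3.55e-06 and 0.0429). DLGAP4 ENST00000475894 also rose in azacytidine against control (Fisher's exact adjusted p = 0.0142).

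DLGAP4 was read in forms with and without an exon of 1071 bases (chromosome 20, 36431646 to 36432716), which long transcripts carry. Its share was 29.2% in the control (21 of 72 reads), 50% in the knockdown (48 of 96), 13.3% in the azacytidine library (10 of 75) and 45.1% with both treatments (46 of 102). Both knockdown libraries lay above both others, also in uniquely assigned reads (14.3%, 24.2%, 13.5% and 27.8%), where the spread was smaller and the library with both treatments was highest. Full-length reads with it numbered 0 of 20, 1 of 22, 0 of 25 and 1 of 20. The exons of DLGAP4 and NLGN1 were picked after their values had been seen, so the shares of the exons are described and not tested. Transcripts that carry them were among those tested for use. DLGAP4 ENST00000373907 had 11 of 72, 32 of 96, 0 of 75 and 26 of 102 reads. It rose in both against azacytidine and fell in azacytidine against control (Fisher's exact adjusted p = 1.66e-05 and 0.00787), and was called for neither treatment. NLGN1 ENST00000695368 passed only in both against knockdown, as given above.

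**Figure D4:**
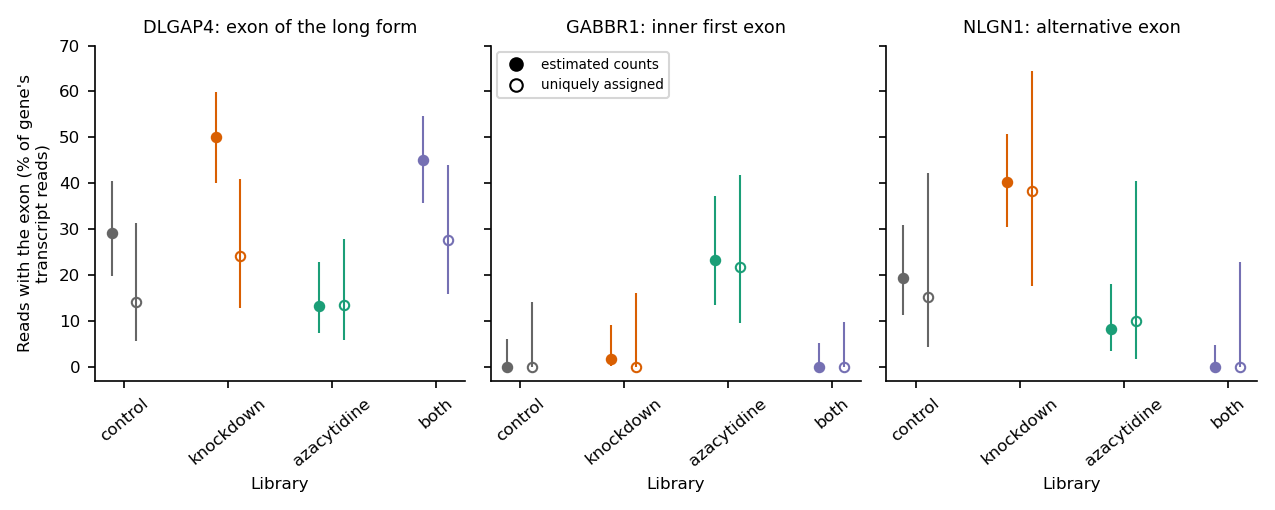
Share of the transcript reads of DLGAP4, GABBR1 and NLGN1 that carry the named exon (percent), from estimated counts (filled) and uniquely assigned reads (open), with 95% Wilson intervals. The DLGAP4 exon was higher in the libraries with the knockdown (50% and 45.1% of estimated counts), the GABBR1 first exon was highest with azacytidine alone (23.4%), and the NLGN1 exon was highest with the knockdown alone (40.2%).

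Unannotated transcripts, found over the libraries together, made up 4.16%, 3.96%, 4.25% and 4.503% of the members' transcript reads, with overlapping intervals (lowest bound 3.04, highest 5.92). There were 19 of them in 18 members, beside 711 annotated ones. Of these, 7 had an exon outside all annotated exons of the gene. A DLGAP1 one of these was read only with the knockdown: a transcript of 2 exons that ends in a last exon of 1905 bases (chromosome 18, 4145763 to 4147667, minus strand) had 4 of 18 transcript reads in the knockdown and 6 of 28 with both treatments, as many as were uniquely assigned, and 1 and 5 of them full-length. It had 0 of 18 in the control and 0 of 30 in the azacytidine library, which allow shares of up to 16.7% and 10.0%, and its Fisher's exact adjusted p-values were 0.493 and 0.140. A CNKSR2 transcript ending in an unannotated last exon (chromosome X, 21519543 to 21522290) had 3, 0, 0 and 5 reads in the 4 libraries, so it did not go with either treatment.

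Gene counts include reads that fit no transcript of the gene, and the members had many. In the control, 52.8% of the members' 2005 reads were assigned to a transcript (Wilson interval 50.6 to 54.9), against 44.2% in the knockdown (42.4 to 45.9), 56.1% with azacytidine and 50.8% with both. Over all genes the shares were 63.9%, 58.5%, 68.1% and 60.4%, so they were lower with the knockdown there too. The 8 members called higher in knockdown against control went from 270 to 721 gene reads, while their transcript reads went from 151 to 236 and their other reads from 119 to 485. Thus the share assigned went from 55.9% to 32.7%, and over all 824 genes called higher it went from 60.0% to 35.4%. In both against azacytidine the 6 members called higher went from 278 to 664 reads, from 170 to 256 in transcripts and from 108 to 408 outside them. In CNKSR2, 51 of 70 control reads and 63 of 172 knockdown reads were assigned, so that 19 and 109 were not.

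With gene counts summed over transcripts, 0 of the 8 calls in knockdown against control stood by the exact binomial test (7 could be tested), and 11.9% of the higher calls of all genes stood. The SHANK1 ratio was then 1.53, as large as with gene counts, at an exact binomial adjusted p of 0.0573. In both against azacytidine 1 of the 6 stood (SHANK2), beside 9.59% of the higher calls of all genes. There SHANK1 and DLGAP3 still had ratios of 1.22 and 1.23 (exact binomial adjusted p = 0.074 and 0.138), and uniquely assigned reads kept the SHANK1 call (1.34). In azacytidine against control 3 of the 5 calls of lower counts stood (GRM3, GABRA2 and HOMER1), beside 46.7% of the lower calls of all genes. The members are long genes, with a median span of 226992 bases against 40622 over all genes tested, and 68.2% of them span at least 100000 bases, against 25.2%. Their median transcript length, weighted by reads, was 4978 against 3389 bases. The source of the unassigned reads was not tested.

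**Figure D5:**
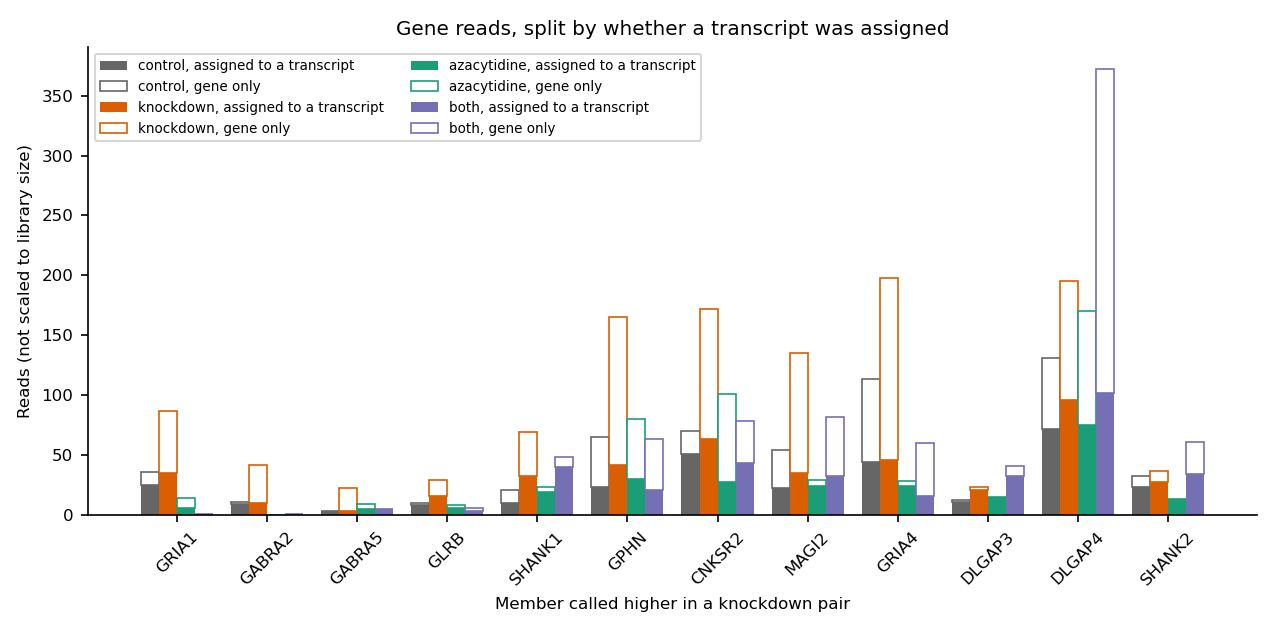
Gene reads of the 12 members called higher in a knockdown pair, as bars per library, split into reads assigned to a transcript (filled) and reads counted for the gene only (open), not scaled to library size. Most of the added height in the knockdown bars of GRIA1, GABRA2, GPHN, CNKSR2 and MAGI2, and in the bar of DLGAP4 with both treatments (270 of 372 reads), is open.

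Other genes of the postsynapse, a list of 108 auxiliary subunits, further receptors, scaffolds and adhesion molecules, were tested in the same way for 85 with enough reads. In knockdown against control 9 were called higher (10.6%, beside 5.98% of all genes) and 3 lower (3.53%, beside 2.57%), and in both against azacytidine 6 (7.06%, beside 3.71%) and 2 (2.35%, beside 3.27%). ADGRB3, an adhesion receptor (42, 105, 34 and 72 reads), and INSYN2A, of inhibitory synapses (5, 75, 10 and 60), were called higher in both knockdown pairs (2.35% of the 85, beside 0.471% of all genes). In azacytidine against control 11 were called higher and 11 lower (12.9% each, beside 6.58% and 9.98% of all genes), and in both against knockdown 12 (14.1%, beside 9.07%) and 14 (16.5%, beside 16.4%), so the last share was that of all genes. Called higher in both azacytidine pairs were ADGRB1, BEGAIN, CACNG3, CPT1C and IQSEC3 (5.88%, beside 2.48% of all genes). Lower in both were 10 (11.8%, beside 6.19% of all genes), led by NRXN3 (76, 73, 7 and 0 reads), LRRTM3 (15, 25, 0 and 3), LRRC4C (19, 57, 1 and 8), SIPA1L1 (58, 70, 4 and 10) and DLG1 (19, 180, 3 and 14). DLG1, the scaffold SAP97, was thus lower with azacytidine as its relative DLG2 was. In knockdown against control the 2 differed: DLG1 was called higher, while DLG2 had a ratio of -0.74 and no call.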

How the data were processed

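Per the labels, polyadenylated RNA of 4 libraries of induced neurons, 1 per group, was read by a modified Iso-Seq protocol. Per the file headers, the authors aligned reads with minimap2 to hg38 and assigned them with Bambu; versions and settings are not given in the sources used here. The deposited gene table holds estimated counts per gene, and the deposited transcript tables hold estimated counts, full-length estimated counts and whole counts of the reads that fit a single transcript. The authors' deposited CPM table served only to check its denominator, the total of the gene counts.

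All gene counts as deposited were even (within 0.00031), so they were halved to reads (2 counts for 1), a unit the tests had not assumed. After this, 58.7% to 59.1% of nonzero values were odd. The 1 row without a gene name (5 reads) was left out. Exact binomial tests (scipy 1.17.1) used effective library sizes (TMM, edgeR 4.0.16) and covered genes averaging 5 or more reads, and log2 ratios had a pseudocount of 0.5. Effective sizes were between 484675 and 685549 reads. In knockdown against control the median log2 ratio over all genes was 0.14, and -0.08 under total counts and 0.04 under DESeq2 1.42.0 size factors. Transcript use was tested by Fisher's exact test for transcripts with at least 10 reads in all, in genes averaging 20 or more transcript reads. Symbols were matched through gene identifiers for 13511 of the 13789 genes tested. Intervals are exact for ratios and Wilson (95%) for shares, and a count of 0 allows 3 reads. PCR reads without molecular identifiers are not independent molecules.

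The members and the lists were chosen with earlier results of these data known. The rule for values in full named members called in a pair and the 2 with most reads in each role class, and other postsynaptic genes called in both pairs of a treatment, up to 5 a direction. A result that this rule would name among the other postsynaptic genes is not reported here. The exons of NLGN1 and DLGAP4 were chosen after their values were seen. Scripts were tested on simulated data. Exons and loci came from the deposited annotation. Exon sequences came from GENCODE 29 transcripts (checked against that annotation) and promoter sequences from RefSeq.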

Additional observations from a re-analysis of the deposited data

Results flagged for a closer look

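GRIA1 was called in opposite directions in the knockdown pairs, higher in knockdown against control (87 against 36 reads) and lower in both against azacytidine (1 against 14 reads). The log2 ratio without azacytidine minus that with it was 4.43. This difference between the pairs was not tested, since each group had 1 library. In the library with both treatments GRIA1 rests on 1 read. The GRIA1 transcript reads were 25, 35, 6 and 1, and both calls in the knockdown pairs were lost with transcript counts.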

How the results depend on the processing

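No paired analysis was possible because each group had 1 library, and all carry the same replicate number. For the same reason no replicate could be left out. The 44 tested members had 40 calls over the 4 pairs, and these were kept in 33 cases with total counts, 38 with DESeq2 size factors, 26 with a mean of at least 20 reads (14 not tested), 33 with no filter, 39 with a pseudocount of 2, 40 with counts as deposited, 5 with uniquely assigned counts (16 not tested), 1 with full-length counts (25 not tested), 32 with the length trend removed, and 8 with summed transcript counts, the last chosen after seeing the data. Calls of all genes were lost as well. Of their higher calls in knockdown against control, 6.07% were kept with unique, 0.364% with full-length counts and 68.9% with the length trend removed. Of their lower calls in azacytidine against control, the same settings kept 25.3%, 4.94% and 91.2%. Genes that could not be tested count as lost in these shares.

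The 8 calls in knockdown against control became 3 with total counts, 5 with a mean of 20 reads, 5 with the length trend removed (GABRA2, GABRA5, SHANK1 and GPHN of the 8, and DLG2, lower, in addition), and 0 with unique, full-length or summed transcript counts. The 9 in both against azacytidine became 3, 0 and 1 with these 3 kinds of count. The 6 in azacytidine against control became 3 with a mean of 20 reads, 13 as deposited, 3 with unique and 1 with full-length counts. The 17 in both against knockdown became 10 with a mean of 20 reads and 5, 1 and 4 with unique, full-length and summed counts. With total counts, higher calls made up 55.6% instead of 41.2% in both against knockdown and 28.6% instead of 16.7% in azacytidine against control.

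The 2 calls in both knockdown pairs became 1 with total counts (SHANK1), 1 with no filter (MAGI2) and 1 with the length trend removed (DLG2, lower), and 0 with unique, full-length or summed counts and with the additive edgeR and DESeq2 models, which over all genes called 0 and 10 for the knockdown. The 4 in both azacytidine pairs became 2 with a mean of 20 reads (GRIA4 and DLG2), 10 as deposited, 1 with unique counts (GRM3), 0 with full-length counts, 2 with summed counts (GRIA1 and GRM3) and 0 with the additive DESeq2 model. The 42 other postsynaptic genes called in a pair became 14, 3 and 27 with unique, full-length and summed counts. Transcripts called for use with the knockdown went from 0 to 6 as deposited, and with azacytidine from 1 to 5 as deposited and 0 with unique or full-length counts.

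Directions reversed with unique counts for the median in both against knockdown (0.27), MAGI2 in the knockdown pairs (-0.73 and -0.70) and GRIK2 in both against knockdown (3.90). With full-length counts they reversed for the median in both against azacytidine (-0.0092), GPHN (-0.13) and CNKSR2 (-0.23) in knockdown against control, GRIA4 (-0.52) and DLGAP4 (-0.0018) in both against azacytidine, and GRIA3 (-0.077) and GRIK5 (-0.77) in both against knockdown. With summed transcript counts they reversed for the median in both against knockdown (0.11), GRIA4 in both against azacytidine (-0.41), and GRIK2 (0.45) and GRIK5 (-0.16) in both against knockdown. The causes were not tested. Counts under about 10 reads limit the NMDA and GABA-A subunits.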
